A study of Mus musculus with 4 samples.

Results

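Complex I of the respiratory chain was followed along the mouse tibialis anterior through its nuclear-encoded subunits. The members were all entries for a single gene whose symbol starts with Nduf, has a, b, c, s or v next and then a digit, with pseudogenes left out. The name pattern took 43 of the 28989 single-gene entries, and 37 protein-coding genes were kept after 6 entries were removed. Those removed were processed pseudogenes and Ndufb1-ps, which is named as a pseudogene but annotated as protein coding. The rule uses names only and no measured value. Of the 37, 35 encode subunits of complex I, and 2, Ndufa4 and Ndufa4l2, carry the name without being counted as subunits of it today. The acyl carrier protein subunit Ndufab1 falls outside the name pattern, and Ndufb1 appears in the files as Ndufb1-ps, which the rule leaves out.

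The samples were 4 tibialis anterior muscles, which are fast hindlimb muscles of the shin, all of 1 group with no treatment or genotype given. Each muscle was cryosectioned along an axis and the RNA of every section was sequenced under its own barcode (TOMO-seq with CEL-Seq2, which counts transcript 3′ ends by unique molecular identifiers, UMIs). The authors kept 37, 45, 46 and 43 sections of muscles 1 to 4. The labels give neither strain, age nor sex, nor whether each muscle is from its own animal. P-values therefore measure how far differences along the muscle vary among these samples, or, for fits within a muscle, the spread among its sections. Either spread may be technical.

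Complex I takes electrons from NADH, passes them over iron-sulphur clusters to ubiquinone and pumps protons across the inner mitochondrial membrane. It is built in blocks, namely an NADH-oxidising N module at the tip of the matrix arm, a ubiquinone-reducing Q module at its base, and a membrane arm with a proximal and a distal part. The conserved core is divided between nuclear genes, whose products form the matrix arm, and mitochondrial genes, whose products form the pumping membrane core, while the supernumerary subunits are all nuclear. In skeletal muscle, oxidative fibres hold more of the complex than glycolytic fibres.

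Sections were ordered by barcode number and grouped, within a muscle, into 5 zones of the same length. Which end was cut first is not stated, so "first end" (zone 1) means the low barcode numbers and "last end" (zone 5) the high ones. Levels are given in CPM, the counts of a zone scaled to a common total of 1000000 with TMM factors. The kept sections held from 17114433 to 26989829 transcripts per muscle and from 86190 to 1159697 per section. Mitochondrially encoded genes took from 59.1% to 66.9% of a muscle's transcripts. All 6 fibre markers were present, with a summed level of 34011 to 44000 CPM at the first end and 37729 to 44398 CPM at the last end, as the labelled tissue calls for. All 37 members passed the filter on low counts, among 9317 genes that did, and none was near the limit of the UMI count. The most that any member used of the possible UMIs in a section was 44.9%, for Ndufa12.

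The members were abundant, and their order was led by subunits of different blocks. Their summed level was 6345, 5145, 5658 and 6385 CPM in muscles 1 to 4. Without Ndufa12 it was 5758, 5121, 4785 and 5214 CPM, so the order of the muscles in the sum depended on this member. The median member reached 117 CPM, against 6.65 CPM for the median of all 9317 genes tested. CEL-Seq2 reads 1 fragment at the 3′ end of each transcript, so CPM is not weighted by transcript length. The highest mean was that of Ndufa12, an N module subunit added late in assembly, at 663 ± 488 CPM (SD, n = 4). It was followed by the small membrane subunit Ndufc1 at 406 ± 103 CPM, Ndufa4 at 392 ± 99.7 CPM, the membrane subunit Ndufc2 at 322.5 ± 41.3 CPM and the distal subunit Ndufb6 at 321.6 ± 97.3 CPM. Ndufc2 and Ndufb6 did not differ beyond their spread over the muscles.

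The lowest members were Ndufa4l2, a paralogue of Ndufa4 known as a hypoxia-induced gene, at 3.10 ± 1.03 CPM, and the Q module core subunit Ndufs8 at 30.5 ± 9.22 CPM. Ndufb4, the ubiquinone-site neighbour Ndufa9 and the distal subunit Ndufb7 had 31.2 ± 19.8, 47.9 ± 6.28 and 43.1 ± 16.5 CPM. The place of Ndufb4 rests on its own entry, since with entries shared with pseudogenes and those of the pseudogenes added it had 169, 158, 152 and 96.7 counts per 1000000 transcripts in muscles 1 to 4. These lowest 5 members included both a core subunit and distal arm subunits, and no block was uniformly high or low. Median levels were 140 CPM over the 10 N module members, 131 CPM over the 5 of the Q module, 142 CPM over the 10 of the proximal arm and 112 CPM over the 10 of the distal arm.

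Some core subunits were very even between muscles and others were not. The coefficient of variation over the 4 muscles had a median of 9.05% over the 7 core subunits and 23.2% over the 28 supernumerary ones, against 21.5% over all genes tested, a description with no test. Ndufs1, the large iron-sulphur subunit of the N module, had 191, 191, 184 and 178 CPM in muscles 1 to 4, the smallest variation of all members (3.38%). The Q module core subunit Ndufs3 had 191, 171, 168 and 172 CPM, and the iron-sulphur subunit Ndufv2 had 229, 187, 194 and 211 CPM. Ndufs7, next to the ubiquinone site, had 198, 156, 78.8 and 92.6 CPM. Its coefficient of variation was 42.4%, and those of the core subunits Ndufv1 and Ndufs8 were 35.4% and 30.2%, all above the median of the supernumerary subunits.

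**Figure D1:**
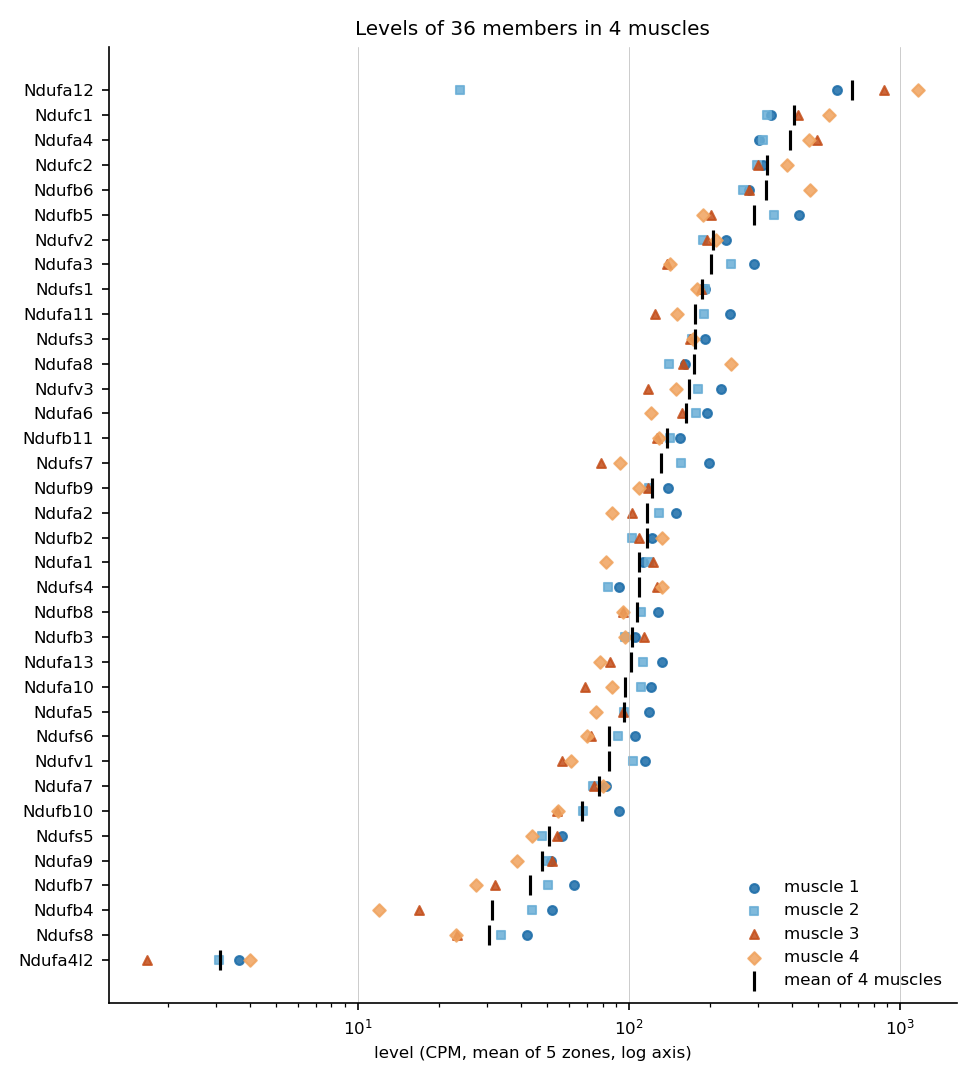
Level of each of 36 members in each muscle (x axis, CPM, mean of 5 zones, log axis), ordered by mean level. Points are muscles and the vertical bar is the mean of 4. Ndufa12 stands apart, at 23.9 CPM in muscle 2 and 587 CPM or more in the other muscles.

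Many members differed in level between muscles 1 and 2 and muscles 3 and 4, as did many of all genes tested. These pairs of muscles were made with different sets of section barcodes, and such a difference is not particular to the members. For 20 of the 37 members both values of muscles 1 and 2 lay above both values of muscles 3 and 4, against 35.4% of all genes tested, and for 6 members both lay below, against 33.1%. Ndufb5, a distal subunit, had 424 and 343 CPM in muscles 1 and 2, against 201 and 188 CPM in muscles 3 and 4. The proximal subunit Ndufa3 had 289 and 238 CPM in muscles 1 and 2, against 138 and 142 CPM in muscles 3 and 4. Ndufa4, in contrast, had 302 and 311.5 CPM in muscles 1 and 2, against 494 and 461 CPM in muscles 3 and 4. The share of members with non-overlapping levels was above the background in the higher direction and below it in the lower one. The barcode set and the muscle cannot be told apart, so levels were not tested between the sets, and the comparisons along the muscle were made within muscles.

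Ndufa12 was almost missing from its own entry in muscle 2. Its single-gene entry had 587, 23.9, 872 and 1171 CPM in muscles 1 to 4. All 45 sections of muscle 2 were low, from 4.11 to 48.8 counts per 1000000 transcripts, against a lowest section of 397 in muscle 1, 479 in muscle 3 and 509 in muscle 4. The files also hold entries in which reads were given to Ndufa12 and its processed pseudogene together. These shared entries had 3672, 3850, 3132 and 2750 counts in muscles 1 to 4, so they were not low in muscle 2, while the single-gene entry had 12074, 456, 24572 and 22179 counts. The pseudogene alone had 505, 712, 54 and 8 counts. The single-gene entry thus differed 36.4-fold between the highest and the lowest muscle in counts per 1000000, and the shared entry 1.94-fold. All 3 kinds of entry together came to 859, 293, 1029 and 1090 counts per 1000000, so muscle 2 was also the lowest by this sum.

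**Figure D2:**
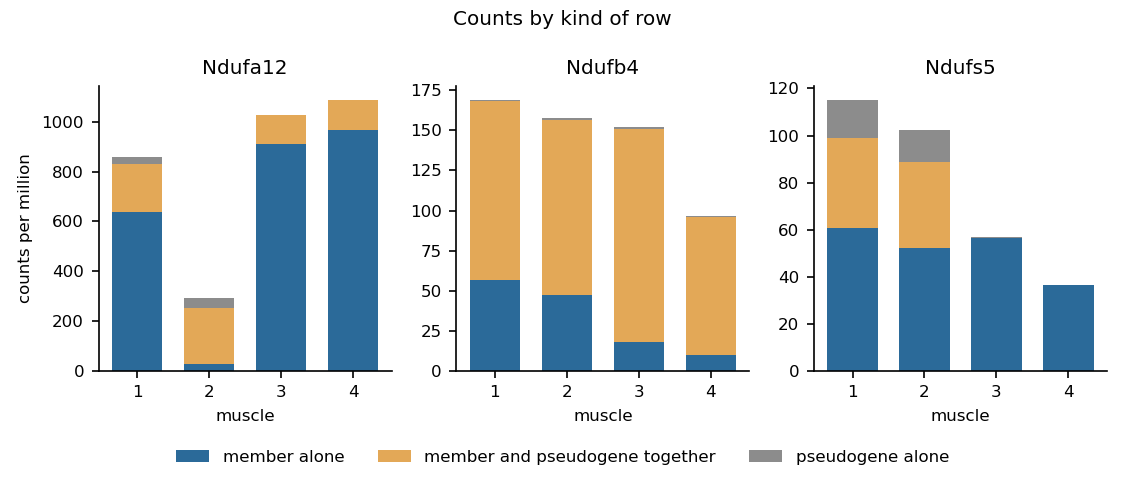
Counts per 1000000 transcripts (y axis) in each muscle for 3 members with sizeable shared entries, divided into the member alone, the member together with processed pseudogenes, and the pseudogenes alone. For Ndufa12 the blue part is 26.6 in muscle 2 and 638 to 969 in the other muscles, and for Ndufs5 the orange part is present in muscles 1 and 2 and is 0 in muscles 3 and 4.

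Shared entries mattered for 4 members and held under 1% of the single-gene count for the other 33. Ndufb4, a distal subunit, had 9562 counts in entries shared with processed pseudogenes, which is 371% of its own entry. Its own entry had 56.5 and 47.5 counts per 1000000 in muscles 1 and 2, against 17.7 and 9.58 in muscles 3 and 4, while the shared entries had 112 and 109 against 133 and 86.4. Ndufs5, a proximal subunit of the intermembrane space, had 725 and 625 shared counts in muscles 1 and 2, against 0 and 0 in muscles 3 and 4. Ndufs6, a zinc-binding N module subunit, had 145 and 109 shared counts in muscles 1 and 2, against 257 and 0 in muscles 3 and 4. The division of reads between a gene and its near-identical copies therefore differed between libraries, and the level differences of these 4 members between muscles are uncertain. For Ndufb4 the level itself, and with it the rank among the lowest members, is uncertain too. How the reads were divided upstream is not given in the sources used here, and its part in the low Ndufa12 of muscle 2 was not tested.

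The promoters of the members are shown because many members moved together along the muscle, as described further on. Windows from 250 bases before to 50 bases after the annotated start were available for 32 members (RefSeq, GRCm38.p6). Their median G and C content was 59%, against 52.7% over all 32851 windows. Letter strings known as binding motifs of regulators of mitochondrial genes were searched on both strands, namely GCATGCGC for NRF1, AAGATGGCG for YY1, CCGGAAGT for GABP and TCAAGGTCA for ERR alpha. The NRF1 letters stood in the windows of 3 members (9.38% of members, against 3.05% of 27025 genes). In 2 of them, Ndufa8 and Ndufa11, the transcript was higher at the first end, and in Ndufa6 it did not pass the test. The matched stretches are given 5′ to 3′ on the gene's strand, with the NRF1 letters or their reverse complement in capitals.
Ndufa8, chr2:36049328-36049357, minus strand: tcgctggagacGCATGCGCagatggtaccg
Ndufa11, chr17:56717691-56717720, plus strand: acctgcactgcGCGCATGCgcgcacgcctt
Ndufa6, chr15:82354356-82354385, minus strand: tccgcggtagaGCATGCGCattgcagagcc
In Ndufa11 the letters also match on the other strand, overlapping the match shown.

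The YY1 letters stood in the windows of 5 members (15.6%, against 1.64% of all genes). In each of the 5 they lay on the gene's own strand and began 22 to 35 bases after the annotated start. The stretches are set out together because this shared place was not used by the rule, and the capitals mark the letters searched. These letters contain ATG, the triplet that also starts translation, and whether it does so here was not examined.
Ndufc1, chr3:51408914-51408943, minus strand: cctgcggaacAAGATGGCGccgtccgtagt
Ndufs6, chr13:73328433-73328462, minus strand: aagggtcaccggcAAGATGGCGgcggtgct
Ndufa9, chr6:126849096-126849125, minus strand: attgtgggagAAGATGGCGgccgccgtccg
Ndufs4, chr13:114388045-114388074, minus strand: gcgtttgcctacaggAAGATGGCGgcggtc
Ndufs7, chr10:80249463-80249492, plus strand: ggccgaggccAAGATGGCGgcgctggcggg
Of these, Ndufc1 and Ndufs6 were higher at the first end, while Ndufa9, Ndufs4 and Ndufs7 did not pass the test. The NRF1 letters were held by 2 of 11 members called at the first end and 1 of 21 not called, and the YY1 letters by 2 of 11 and 3 of 21. The GABP letters were found in 1 member, Ndufs3 (3.13%, against 4.31% of genes), and the ERR alpha letters in none (against 0.466%). A match is a description of letters and not evidence of binding. The whole window of Ndufa8, the member with the largest difference between the ends, reads as follows, with the NRF1 letters in capitals.
Ndufa8, chr2:36049289-36049588, minus strand: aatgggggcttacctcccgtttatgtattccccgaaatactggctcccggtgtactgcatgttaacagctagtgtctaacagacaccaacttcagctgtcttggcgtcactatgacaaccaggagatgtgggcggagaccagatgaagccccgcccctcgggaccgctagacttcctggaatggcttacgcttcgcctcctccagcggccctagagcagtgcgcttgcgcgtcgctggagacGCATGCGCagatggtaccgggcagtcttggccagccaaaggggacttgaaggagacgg

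Between the ends of the muscle, nearly all members were higher at the first end. The difference, first end minus last end in log2 CPM, was positive for 36 of 37 members with a median of 0.23, against -0.00 over all genes tested. By edgeR's quasi-likelihood test with muscle as a block, 12 members were higher at the first end at an adjusted p of 0.05 and none was lower, against a background of 2.05% of genes called higher. DESeq2 called 16 members higher and 0 lower, against 159 higher and 61 lower of 9317 genes. Every edgeR call was among the 16 except Ndufb5. At an unadjusted p of 0.05 by edgeR, 29 members passed, all of them higher at the first end. Of the 9317 genes, 1257 passed in either direction. The size was modest, since the 12 called members were from 1.19 to 1.31 times as high at the first end as at the last end.

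The shift ran through each muscle. The median difference of the members was 0.21, 0.35, 0.18 and 0.20 in muscles 1 to 4, against -0.01, -0.01, 0.00 and 0.00 for all genes tested. All 12 called members were higher at the first end in 4 of 4 muscles. They were called on these same muscles by a test that favours such agreement, so this is no separate support. Of all members, 27 were higher in 4 muscles, 5 in 3 and 5 in 2, counts given without a share over all genes. The summed level of the 37 members was 6697, 5723, 5902 and 6779 CPM at the first end, against 5860, 4511, 5257 and 6018 CPM at the last end of muscles 1 to 4. The sum was thus higher at the first end in every muscle, although levels of different muscles overlap between the ends. The count of calls rested on single libraries, because it was 1 without muscle 2 (Ndufa11) and 4 without muscle 3 (Ndufa8, Ndufb3, Ndufb8 and Ndufs1), and 9 without either muscle 1 or muscle 4. None of the 12 passed in all 4 of these fits. Within the barcode sets it was 3 in muscles 1 and 2 alone and 0 in muscles 3 and 4 alone, with median differences of 0.27 and 0.18.

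**Figure D3:**
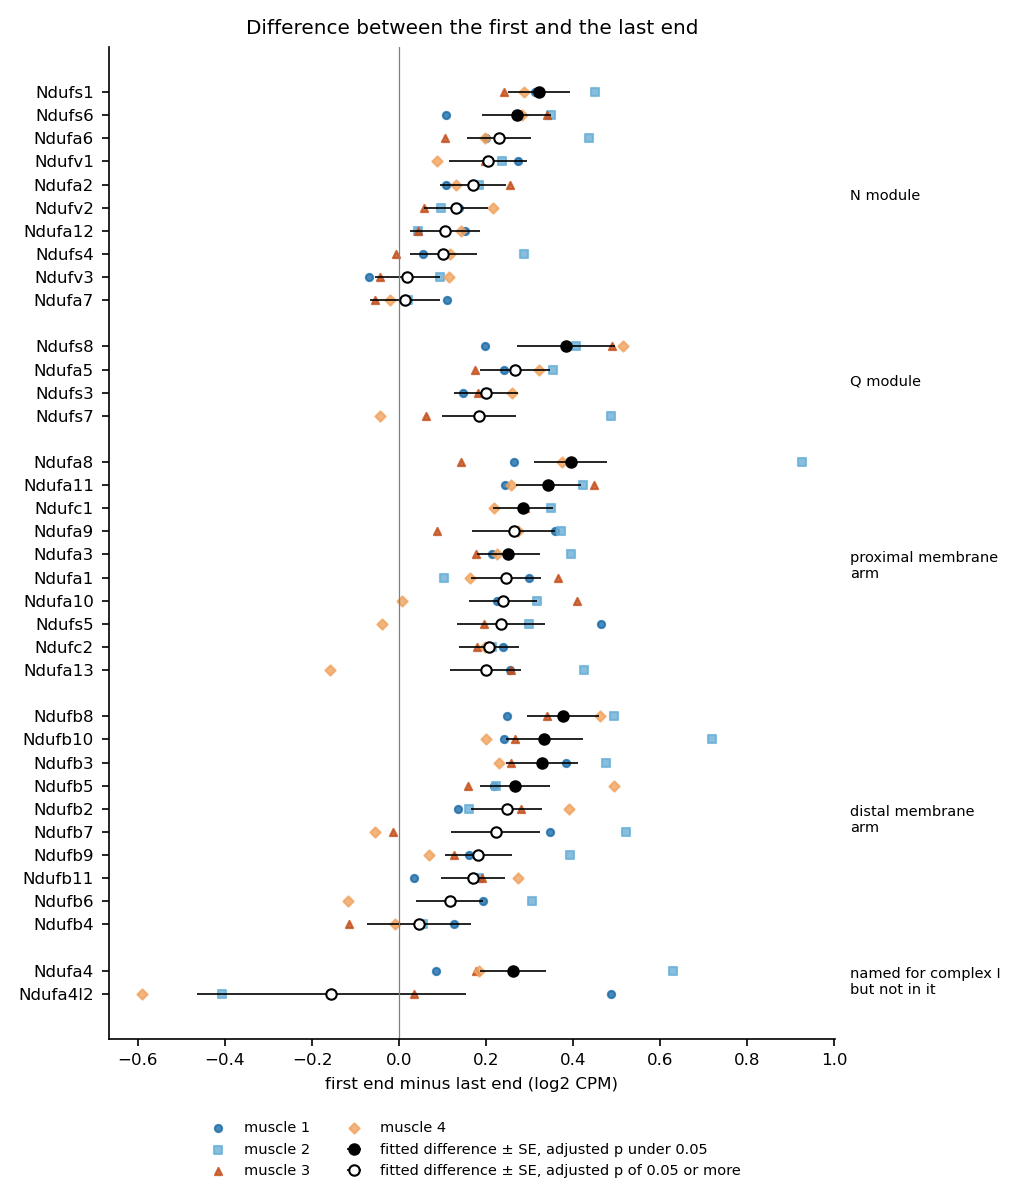
Difference between the first and the last end for 36 members (x axis, log2 CPM), grouped by block of the complex. Black and white circles are the fitted differences with their SE, black where the edgeR adjusted p is under 0.05 (12 members), and coloured points are the 4 muscles; of 36 members drawn, 35 circles lie right of 0 and Ndufa4l2 lies left of it.

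In the N module, 2 of 10 members rose at the first end and all 10 differences were positive, with a median of 0.15. Ndufs1 had 216, 224, 190.3 and 197.5 CPM at the first end of muscles 1 to 4, against 174, 164, 161 and 162 CPM at the last end. Its values at both ends do not overlap, and the difference was 0.32 ± 0.07 (SE, edgeR adjusted p = 0.00360). Ndufs6 had 104, 99.4, 81.2 and 76.9 CPM at the first end, against 96.6, 77.8, 63.9 and 63.01 CPM at the last end. Its ends overlap across muscles but were ordered the same way within each (0.27 ± 0.08, adjusted p = 0.0397). With its shared entries added, an alternative chosen after seeing the data, Ndufs6 no longer passed (0.25, adjusted p = 0.0598). The FMN-binding subunit Ndufv1, where NADH is oxidised, had 0.20 ± 0.09 and did not pass (adjusted p = 0.269). Ndufa7 and Ndufv3 had the smallest differences of the module, 0.01 ± 0.08 and 0.02 ± 0.07. Ndufa12 did not pass either (0.11 ± 0.08, adjusted p = 0.646), nor with its shared entries added (0.18, adjusted p = 0.236).

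In the Q module, which hands electrons to ubiquinone, 1 of 5 members rose at the first end and the median difference was 0.25. Ndufs8, which carries iron-sulphur clusters, had 45.2, 34.7, 26.1 and 26.8 CPM at the first end, against 39.3, 25.9, 18.3 and 18.5 CPM at the last end. It was higher at the first end in every muscle (0.38 ± 0.11, edgeR adjusted p = 0.0410). The supernumerary Ndufa5 had a difference of 0.27 ± 0.08 and missed the threshold (adjusted p = 0.0507). All 5 members of the module had an unadjusted p under 0.05.

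The proximal membrane arm held 4 of the 12 calls among its 10 members, with a median difference of 0.25. Ndufa8, a disulphide-bonded subunit of the intermembrane space, had 186, 183, 169 and 258 CPM at the first end, against 155, 95.6, 153 and 199 CPM at the last end. The gap was widest in muscle 2, where the per-muscle difference was 0.93, against 0.26, 0.14 and 0.37 in muscles 1, 3 and 4. The fitted difference of 0.39 ± 0.08 was the largest of all members (edgeR adjusted p = 0.00240). It did not pass without muscle 2 (0.26, adjusted p = 0.169). Ndufa8 lies on chromosome 2 at 36036326 to 36049406 on the minus strand (GRCm38, GENCODE M21).

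Ndufa11, a membrane-embedded subunit, had 249, 219, 141 and 162 CPM at the first end, against 210.5, 163, 103 and 136 CPM at the last end. It was the single member called in every fit that left out muscle 1, 2 or 4, and it missed the threshold without muscle 3 (0.31, adjusted p = 0.0596). Over all muscles the difference was 0.34 ± 0.07 (edgeR adjusted p = 0.00245). Ndufc1 had 371, 373, 472 and 596 CPM at the first end, against 305, 292, 386 and 512 CPM at the last end, and its differences of 0.28, 0.35, 0.29 and 0.22 were close to each other (0.28 ± 0.07, adjusted p = 0.00717). Ndufa3 was the smallest of the called differences in this arm (0.25 ± 0.07, adjusted p = 0.0368), with 312.5, 263, 146 and 153 CPM at the first end, against 269, 200.1, 129 and 131 CPM at the last end. Without any 1 of the muscles it did not pass (adjusted p = 0.0892 to 0.287). Of the 6 members of this arm that did not pass, Ndufa13 and Ndufs5 were lower at the first end in muscle 4 and higher in the other muscles.

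The distal membrane arm also held 4 calls among 10 members, with a median difference of 0.24. Ndufb8, whose loss is widely used as a sign of a missing complex, had 138, 123, 103 and 105 CPM at the first end, against 116, 87.1, 80.9 and 75.7 CPM at the last end (0.38 ± 0.08, edgeR adjusted p = 0.00307). Ndufb3 had 119, 109.7, 116 and 91.9 CPM at the first end, against 91.02, 78.6, 96.8 and 78.3 CPM at the last end (0.33 ± 0.08, adjusted p = 0.0120). Ndufb10, an intermembrane-space subunit, had 100.5, 78.6, 57.2 and 57.5 CPM at the first end, against 84.9, 47.4, 47.4 and 49.96 CPM at the last end (0.33 ± 0.09, adjusted p = 0.0197). The difference of Ndufb10 was carried most by muscle 2, and it did not pass without it (0.24, adjusted p = 0.269). Ndufb5 had 456.5, 387, 211 and 216 CPM at the first end, against 392, 332, 189 and 153 CPM at the last end (0.27 ± 0.08, adjusted p = 0.0480). Ndufb5 did not pass by DESeq2 (adjusted p = 0.0548) or without any 1 of the muscles (edgeR adjusted p = 0.0818 to 0.312). The arm also had members with small differences, Ndufb4 at 0.05 ± 0.12 and Ndufb6 at 0.12 ± 0.08. With its shared entries added Ndufb4 had 0.15 and did not pass either (adjusted p = 0.357).

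Of the called members, 5 overlap genes on the opposite strand, namely Ndufs1 (Eef1b2, Gm24557 and Ino80dos), Ndufs6 (Mrpl36), Ndufa3 (Tfpt), Ndufa11 (Vmac) and Ndufb5 (Mrpl47), as do 10 other members. The use of strand is not given, and whether the 3′ ends of these partners lie within the members was not examined. It is thus not known whether the counts of these members include transcripts of the partners. Core and supernumerary subunits had similar values, with 2 of 7 core subunits called (median 0.21) and 9 of 28 supernumerary ones (median 0.24), a description with no test of the difference. Outside the name rule, Ndufab1 was higher at the first end (0.28 ± 0.08, adjusted p = 0.0246), and Ndufb1-ps, which the file calls protein coding, had 0.21 ± 0.07 and did not pass (adjusted p = 0.109). Between ends and middle Ndufb1-ps was lower at the ends (-0.28 ± 0.06, adjusted p = 0.00413), while Ndufab1 did not pass (-0.19 ± 0.06, adjusted p = 0.146).

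The blocks went the same way along the muscle. In the summed level of the proximal arm, zone 1 was 1.20, 1.30, 1.19 and 1.15 times zone 5 in muscles 1 to 4. The same ratio was 1.10, 1.19, 1.06 and 1.11 for the N module, 1.13, 1.32, 1.14 and 1.14 for the Q module, and 1.15, 1.24, 1.14 and 1.11 for the distal arm. Every block was thus higher at the first end in every muscle. The course between the ends was not always a steady slope. The N module sum had its highest zone second in muscles 1 and 3. In muscle 3 this sum was 2021 CPM in zone 1 and 2082 CPM in zone 2. Ndufa12 alone had 912 and 1006 CPM in these zones, a larger rise than that of the sum. Over all 5 zones, 9 members differed by the test for any difference, against 3.99% of genes tested. These were Ndufa1, Ndufa4, Ndufa8, Ndufa11, Ndufb3, Ndufb5, Ndufb8, Ndufc1 and Ndufs1. This count was 4, 3, 4 and 6 without muscles 1 to 4 in turn.

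**Figure D4:**
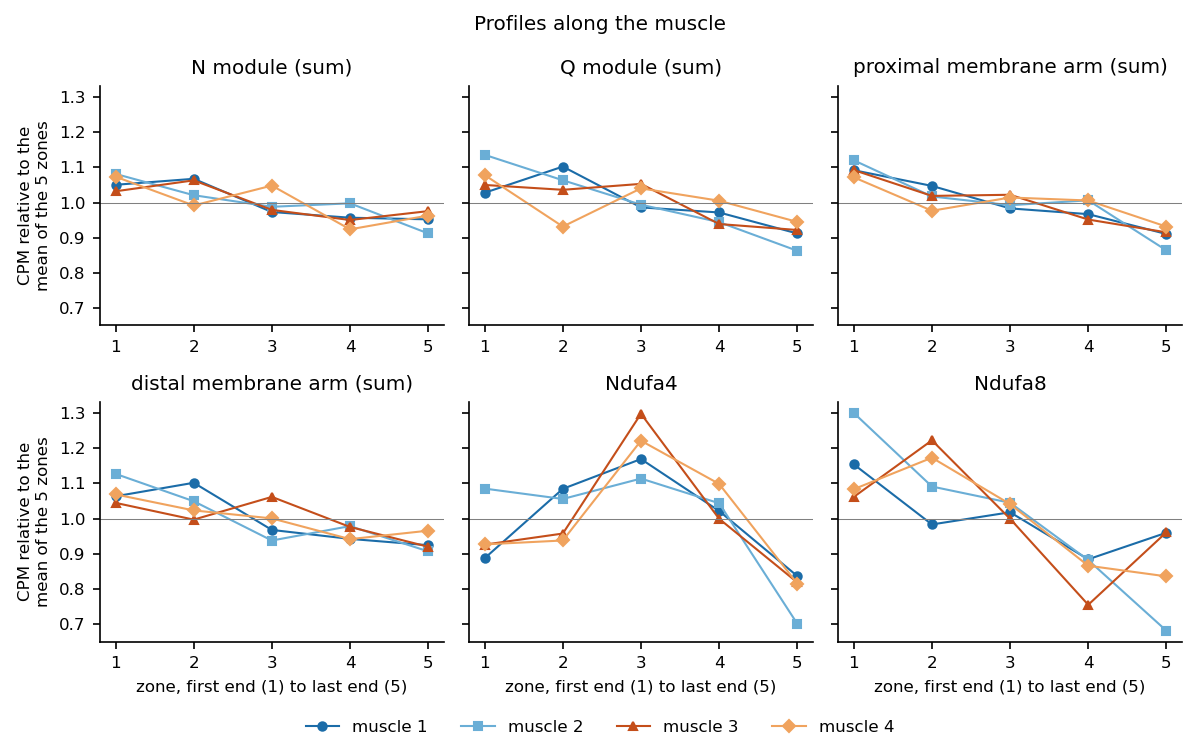
Level in zones 1 to 5 (x axis) relative to the mean of the 5 zones of the same muscle (y axis), for the sums of the 4 blocks and for Ndufa4 and Ndufa8. Each line is a muscle. The block sums are lower in zone 5 than in zone 1 in all 4 muscles, whereas Ndufa4 has its highest level in zone 3 in all 4.

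Between ends and middle, Ndufa4 was the one member that passed the test. It has been reassigned from complex I to cytochrome c oxidase, complex IV, and lies on chromosome 6 at 11900292 to 11907497 on the minus strand. In zone 1 it had 268, 338, 457.5 and 427 CPM and in zone 5 252, 218, 404 and 376 CPM, against 353, 347, 642 and 563 CPM in the middle zone. In every muscle both ends lay below the middle. The mean of the ends minus the middle was -0.46 ± 0.06 (edgeR adjusted p = 9.66e-07), and -0.44, -0.35, -0.58 and -0.49 in muscles 1 to 4. This 1 call among the members stands against 0.826% of genes called lower at the ends, and no member was called higher. DESeq2 called the same single member. At an unadjusted p of 0.05, 4 of 37 members passed, all lower at the ends, against 1105 of 9317 genes in either direction. These shares are similar. The other 3 members were Ndufa1 (-0.22 ± 0.07, edgeR adjusted p = 0.0737), Ndufb3 (-0.18) and Ndufb9 (-0.16). The median over all members was -0.04, with 25 negative and 12 positive, against -0.01 over all genes.

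Ndufa4 was also called between the ends (0.26 ± 0.08, edgeR adjusted p = 0.0374), but this difference was 0.63 in muscle 2 and 0.08, 0.18 and 0.18 in muscles 1, 3 and 4, and it did not pass without muscle 2 (0.16, adjusted p = 0.498). Its paralogue Ndufa4l2 had 5.56, 2.50, 1.40 and 2.83 CPM at the first end, against 3.68, 3.65, 1.34 and 4.77 CPM at the last end. This was the only member with a negative fitted difference (-0.16 ± 0.31, adjusted p = 0.902), and at these levels the muscles went both ways. Of 12 listed genes of complex IV, 1 was called lower at the ends, the muscle isoform subunit Cox8b (-0.39 ± 0.07), and the list's median was -0.07. Also lower was the myosin of fast oxidative fibres, Myh2 (-0.71 ± 0.09).

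In single sections the members varied by a modest factor along each muscle. Summed over the 37 members, and per 1000000 nuclear transcripts so that the mitochondrial share does not enter, sections ranged from 14946 to 20392 in muscle 1, from 11245 to 16879 in muscle 2, from 12029 to 20313 in muscle 3 and from 10955 to 19766 in muscle 4. The highest section was 1.36, 1.501, 1.69 and 1.80 times the lowest. The lowest section lay at a relative position of 0.75 or more in each muscle, on a scale from 0 at the first kept section to 1 at the last. Ndufa4 ranged more widely, from 302 to 1502 in muscle 1, from 487 to 1538 in muscle 2, from 898 to 2192 in muscle 3 and from 488 to 2147 in muscle 4. Its highest section was 4.97, 3.16, 2.44 and 4.395 times its lowest, which includes the counting error of a single gene.

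**Figure D5:**
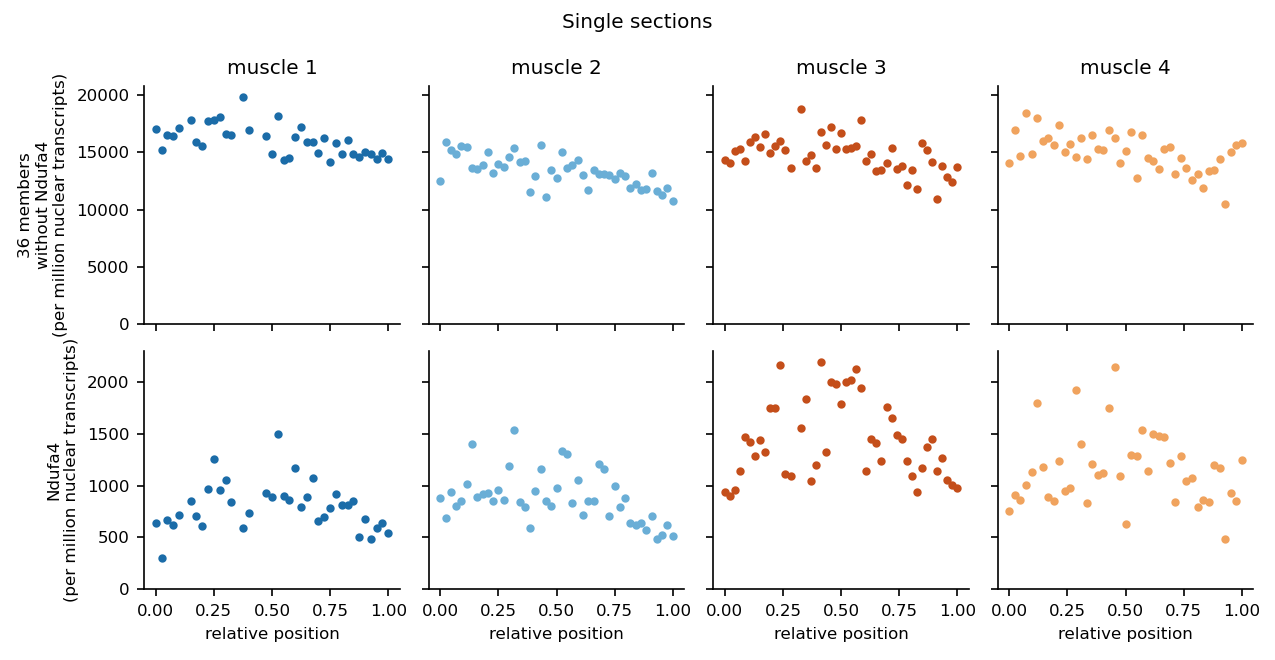
Single kept sections along each muscle (x axis, relative position, 0 at the first end and 1 at the last end). The upper panels show the sum of 36 members without Ndufa4 and the lower panels Ndufa4, both per 1000000 nuclear transcripts. The lowest sum lies at 0.75 or beyond in each muscle, although the last 3 sections of muscle 4 are higher again, and the highest Ndufa4 sections lie between 0.318 and 0.525.

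Across sections, the Spearman correlation of the members' sum with position was -0.59, -0.68, -0.45 and -0.49 in muscles 1 to 4 (37, 45, 46 and 43 sections), and with the section's depth 0.13, 0.18, 0.18 and -0.22. Each member's own level correlated with the sum of the others with a median rho of 0.41, 0.44, 0.54 and 0.40. Sections of a muscle share its library and its depth profile, so these are descriptions. Ndufa3 and Ndufa11 followed the others most closely, with a mean rho over the muscles of 0.59 and 0.57, and Ndufa4l2 and Ndufb4 least, with 0.07 and 0.10. Ndufa4l2 is also the member with the lowest level, and Ndufb4 the one with the largest share of reads in shared entries. Ndufa4 correlated with Myh2 at 0.57, 0.52, 0.59 and 0.51, and the sum of the other members did so at 0.24, 0.55, 0.46 and 0.39. With Myh4, the myosin of the fastest glycolytic fibres, Ndufa4 had -0.30, -0.42, -0.41 and 0.08. The sum of the other members had -0.46, -0.52, -0.45 and 0.05 with Myh4.

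Fitted along the position within each muscle by a spline over sections, 1, 5, 5 and 3 members passed in muscles 1 to 4. The background was 1.04%, 2.99%, 2.53% and 1.52% of genes tested in these muscles. Ndufa4 passed in all 4 muscles (edgeR adjusted p = 1.91e-05, 4.18e-07, 1.32e-06 and 0.00931). Ndufa8 passed in muscles 2, 3 and 4 (adjusted p = 4.15e-08, 4.92e-04 and 0.0386) and not in muscle 1 (adjusted p = 0.619). Further calls were Ndufb5 in muscles 2 and 4, Ndufb10 in muscle 2, and Ndufb2, Ndufb8 and Ndufv1 in muscle 3. These p-values speak of sections of the same muscle, which are not independent samples. With other size factors, muscle 3 had 17 calls and muscle 2 had 10, so the counts depend on scaling. These counts are given without a share over all genes under the same size factors, so they cannot be set against a background.

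The difference between the ends was compared between the barcode sets, as muscles 1 and 2 minus muscles 3 and 4. No member passed by edgeR, with a smallest adjusted p of 0.821, against 0.0859% of all genes tested. At an unadjusted p of 0.05, 1 of 37 members passed, a count given without a share over all genes and not read as a result. This was Ndufb7 (edgeR adjusted p = 0.821). Its difference between the ends was 0.35 and 0.52 in muscles 1 and 2, against -0.01 and -0.06 in muscles 3 and 4. The median difference between the sets was 0.10, with 25 members positive. With 2 libraries in each set, a p that missed the threshold does not show that the sets were alike.

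Other nuclear genes of the respiratory chain shifted in the same direction. Of the complex II list, 3 of 4 genes rose at the first end (median 0.29), among them Sdhb (0.35 ± 0.09) and Sdhc (0.36 ± 0.08). Of the complex III list, 7 of 9 rose (median 0.30), among them Uqcrq (0.36 ± 0.07) and Cyc1 (0.37 ± 0.08). Of the nuclear complex IV list, 8 of 12 rose (median 0.28), among them Cox5a (0.31 ± 0.07) and Cox4i1 (0.37 ± 0.08). Of the 7 mitochondrially encoded subunits of complex I, mt-Nd3 alone rose (0.34 ± 0.09) and the median was 0.25, but 6 of the 7 used at least 99.1% of the possible UMIs in a section, so these values are uncertain. The lists were chosen with earlier results of these data known, and their differences from the members were not tested.

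The genes that build complex I and those that regulate it did not pass the test between the ends. Of 16 assembly factors tested, none was called by edgeR or DESeq2, 2 had an unadjusted p under 0.05, and the median difference was 0.16. Ndufaf2, which Ndufa12 replaces in assembly, had 0.16 ± 0.22, and Ndufaf5, which hydroxylates Ndufs7, had -0.40 ± 0.12 (edgeR adjusted p = 0.0546). Their levels were lower than those of most members, from 1.80 CPM for Foxred1 to 55.04 CPM for Ndufaf4, which widens the errors. Of 10 regulators, none was called by edgeR or DESeq2, 1 had an unadjusted p under 0.05, and the median was -0.05. Ppargc1a, a coactivator of mitochondrial genes, had -0.05 ± 0.11, Nrf1 had -0.05 ± 0.28 and Esrrg had 0.31 ± 0.14 (adjusted p = 0.288).

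Several other measures moved with the shift between the ends. Of the myosins tested, Myh1 was higher at the first end (0.29 ± 0.08, edgeR adjusted p = 0.0396). Its difference was largest in muscle 2, at 0.04, 0.89, 0.22 and 0.05 in muscles 1 to 4, and DESeq2 called 0 myosins higher. Myh4, of the fastest glycolytic fibres, was lower (-0.31 ± 0.08, edgeR adjusted p = 0.0245, with up to 93.97% of its UMIs used). Myh2 did not pass (0.17 ± 0.12, adjusted p = 0.593), at -0.35, 1.09, -0.43 and 0.28 in muscles 1 to 4. All 5 erythrocyte markers were higher at the first end, with a summed level of 1336 to 4195 CPM there, against 601 to 1603 CPM at the last end. The 8 endothelial markers summed to 247 to 292 CPM at the first end, against 177 to 219 CPM at the last end, with 2 called higher. Those were Cd36, which has the highest level of the list, and Kdr. Of the 8, 6 had a positive difference, while Pecam1 (-0.05 ± 0.15) and Egfl7 (-0.04 ± 0.34) did not, so the list was not uniform. The 5 tendon markers summed to 10.02 to 21.1 CPM at the first end, against 33.8 to 128 CPM at the last end, with 3 of 4 tested called lower. The mitochondrially encoded share was 62.9%, 65.5%, 64.5% and 66.5% at the first end, against 58.6%, 55.4%, 62.5% and 65.8% at the last end. Genes in this share, among them mt-Nd1 and mt-Nd2, used up to 100% of the possible UMIs in a section, so the share is uncertain. No marker of these lists was at 0 in all muscles. With the mitochondrially encoded genes left out of the scaling the median difference of the members was 0.24, with 14 calls. The part of these measures in the members' shift was not tested, and in sections that mix fibres, more fibres rich in the complex and more of its RNA per fibre cannot be told apart.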

How the data were processed

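Estimated counts per gene and section barcode were deposited by the authors for 4 muscles, together with a filtered table of normalized signal per muscle. Per the submitters' processing notes, STAR 2.7.7a and GRCm38 were used for alignment; no source used here names the counter, the annotation or the use of strand. Deposited counts were taken as corrected for UMI collisions, and at least 99.99% of values then match a whole number of UMIs within 0.001. This share includes zeros and small counts, which match with or without a correction, so it is no test of the correction. The deposited signal served to tell which sections were kept. Entries naming several genes (0.580% to 0.930% of counts) entered neither tests nor library sizes.

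Kept sections were summed into 5 zones per muscle and rounded, giving 20 sums of 1989683 to 6604613 transcripts. edgeR 4.0.16 in R 4.3.3 (TMM, filterByExpr, quasi-likelihood test, Benjamini-Hochberg adjustment over 9317 genes, biological coefficient of variation 7.03%) was fitted with the muscle as a block, since its zones share a source. SE was derived from the F statistic, so it rests on all 20 sums. Per-muscle differences add 1 CPM before the log2. For position within a muscle, a natural spline of 4 degrees of freedom was fitted over sections, for genes counted in at least 25% of sections. The fits were tested on simulated data. Intervals of counting cover counting error only.

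Alternatives were DESeq2 1.42.0 and its size factors, limma 3.58.1 with equal section weights, other filters, zones and libraries, thinning, and 2 alternatives chosen after seeing the data (shared entries added; TMM over well detected genes). Named genes were members called in a contrast (the rule gave the 10 largest in full, and all 12 are given), the 5 highest and 5 lowest levels, members against the majority, Ndufa4 and Ndufa4l2; members just missing a threshold or varying least were named after their values were seen. Symbols were matched to GENCODE M21 by identifier (28895 of 28989). Counts and sums include 1 member that is not reported here by name. Members and lists were chosen with earlier results of these data known.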

Additional observations from a re-analysis of the deposited data

Results flagged for a closer look

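In 7 of 111 sets of 4 muscle values, a muscle lay far from the other 3 by Dixon's test at the 95% level, and chance gives about 1 in 20. Ndufs3 had a level of 190.7 CPM in muscle 1, against 168 to 172 CPM in the others. Ndufb6 had 467 CPM in muscle 4, against 264 to 279 CPM. The first end minus last end difference of Ndufb10 was 0.72 in muscle 2, against 0.20 to 0.27. The ends minus middle difference was -0.10 for Ndufb11 in muscle 1 (others -0.02 to -0.01), 0.19 for Ndufb7 in muscle 4 (others -0.07 to -0.04), -0.52 for Ndufv1 in muscle 3 (others 0.03 to 0.12) and 0.10 for Ndufs8 in muscle 1 (others -0.25 to -0.19).

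Counts outside the members' own entries were also sizeable. Entries shared with processed pseudogenes held 9562 counts for Ndufb4 and 13400 for Ndufa12. The entry Ndufb1-ps, which the name rule leaves out and the file calls protein coding, held 32946 counts and a mean level of 376 CPM.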

How the results depend on the processing

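The members' median difference between first and last end was positive in each alternative, from 0.16 (3 zones) to 0.27 (muscles 1 and 2 only), against 0.23 as reported. The number called higher there (12) was 14 with DESeq2 size factors, 16 with DESeq2, 8 with 3 zones, 7 with thinned sums, 5 without the filter on low counts, 5 with limma and 3 with 10 zones, where 36 members were tested. It was 3 and 0 within the barcode sets and 1 to 9 with a muscle left out. With no replicate block, which leaves the level differences between muscles in the error, 0 members were called between the ends, 0 at the ends and 0 over any zone. The block is the muscle itself, so the pairing of zones comes from the design. The cause of the other changes was not tested.

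Members called at the ends numbered 1 as reported, 0 with 3 zones and 1 to 2 with a muscle left out. Ndufa4 there ran from -0.58 to -0.21 and passed in 16 of 18 alternatives. The median at the ends was -0.11 with limma, against -0.04. Calls over any zone (9) were 4 without the filter, 3 with limma, 5 with thinning, 3 and 4 in the barcode sets, and 3 to 6 with a muscle left out. Within muscles 1 to 4, DESeq2 size factors gave 2, 10, 17 and 1 calls, and muscle 1 had 2 with mitochondrially encoded genes left out. The counts of calls in this section are given without shares over all genes.

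Signs turned for Ndufa4l2 between the ends (-0.50 to 0.13 with a muscle left out, 0.18 in muscles 1 and 2) and at the ends (-0.32 to 0.086 with a muscle left out, 0.018 without muscle 4, 0.30 in muscles 1 and 2), for Ndufb4 (-0.0033 to 0.088 with a muscle left out, -0.061 in muscles 3 and 4), and in muscles 3 and 4 for Ndufb6 (-0.012) and Ndufb7 (-0.040), none of them called. Depth limits Ndufa4l2 most.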
